A study of Caenorhabditis elegans with 12 samples.

Results

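A set of 8 peroxisomal genes of ascaroside synthesis was followed at 52 h and 60 h after egg laying in 2 strains of Caenorhabditis elegans. They are daf-22, dhs-28, maoc-1, acox-1.1, acox-1.2, acox-1.3, acox-1.4 and acox-3, which are 8 of the 22113 genes with deposited estimates. They were taken by name for their known place in the pathway, with earlier results of these data known. Of these 8, 7 passed the filter on low counts and were tested among 16371 genes. The gene left out of the tests, acox-1.3, had between 0 and 6.54 estimated counts per library.

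Ascarosides are small glycolipids, a dideoxy sugar joined to a fatty acid-like side chain, which worms release as pheromones. Some of them make up the dauer pheromone, which signals crowding and favours entry into the stress-resistant dauer larva. The long side chains are shortened in peroxisomes by cycles of β-oxidation. In each cycle an acyl-CoA oxidase of the acox family introduces a double bond, the enoyl-CoA hydratase maoc-1 adds water, the dehydrogenase dhs-28 oxidises the product and the thiolase daf-22 cleaves the shortened chain. The oxidases act on different chain lengths and so bear on which ascarosides are made.

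RNA was sequenced from whole animals of 4 groups, with 3 libraries each. The first strain, CB1370, carried the temperature-sensitive allele e1370 of daf-2, the insulin-like receptor gene. The second strain, LJ2703, carried the same daf-2 allele together with allele ys54 of daf-42, so both strains shared the daf-2 mutation and neither was wild type. Eggs were laid during 2 h at 15 °C, the animals were then moved to 25 °C, which drives daf-2 larvae towards dauer, and they were collected 52 h or 60 h after egg laying. The collection of this daf-2;daf-42 double mutant at 60 h held dead as well as living L2d larvae, the pre-dauer stage, so genotype and death of larvae cannot be told apart in that group. The labels do not say whether replicates came from separate cultures, and the p-values therefore measure only the spread between these libraries.

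Libraries held between 30011670 and 43519394 estimated counts. The targeted gene daf-42 was measured at 1011 to 2078 normalised counts-per-million (CPM) in daf-2 and 685 to 879 CPM in the double mutant at 52 h, and at 532 to 1960 CPM and 74.9 to 273 CPM at 60 h, so that the genotypes did not overlap at either time. Markers of the intestine, epidermis, body wall muscle, neurons, pharynx and germline, 6 genes each, were above 0 in every group. In a whole-animal sample, fewer cells of a type and less RNA per cell cannot be told apart.

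On the scale of transcripts-per-million (TPM), which allows for gene length, daf-22 and dhs-28 had the highest mean levels of the 8 genes in every group. At 52 h in daf-2 they measured 111 ± 27.8 TPM and 101 ± 13.8 TPM (mean ± SD, n = 3 here and below), and their ranges overlapped. The hydratase maoc-1 followed at 51.0 ± 2.15 TPM, then the oxidases acox-1.4 at 38.2 ± 15.7 TPM, whose range reached that of maoc-1, and acox-3 at 37.1 ± 8.69 TPM. Their ranges overlapped. The oxidase acox-1.1 was lower, at 14.4 ± 4.76 TPM, and separated from acox-3 in its range. The remaining oxidases were close to undetected, acox-1.2 at 0.397 ± 0.194 TPM and acox-1.3 at 0.0226 ± 0.0266 TPM. In the double mutant at 52 h daf-22, dhs-28 and maoc-1 again had the 3 highest means, and acox-3 and acox-1.4 again overlapped. There maoc-1 overlapped acox-3 and lay above it in 2 of the 3 libraries, with 32.3 TPM against 41.9 TPM in replicate 1.

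By 60 h this order had changed in its middle. In daf-2, dhs-28 at 192 ± 35.3 TPM and daf-22 at 189 ± 19.8 TPM overlapped at the top. The oxidase acox-3 came next at 74.3 ± 23.8 TPM and lay above maoc-1, at 37.3 ± 1.85 TPM, without overlap. The last well expressed genes were acox-1.1 at 24.4 ± 8.32 TPM and acox-1.4 at 20.0 ± 6.71 TPM, with overlapping ranges but acox-1.1 above acox-1.4 in all 3 libraries. In the double mutant dhs-28, at 168 ± 9.19 TPM, lay above daf-22, at 142 ± 12.5 TPM, without overlap, and acox-1.4 stood above acox-1.1 in all 3 libraries. The summed level of the 8 genes was 272 to 408 TPM in daf-2 and 348 to 410 TPM in the double mutant at 52 h, and 482 to 638 TPM and 399 to 467 TPM at 60 h.

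**Figure D1:**
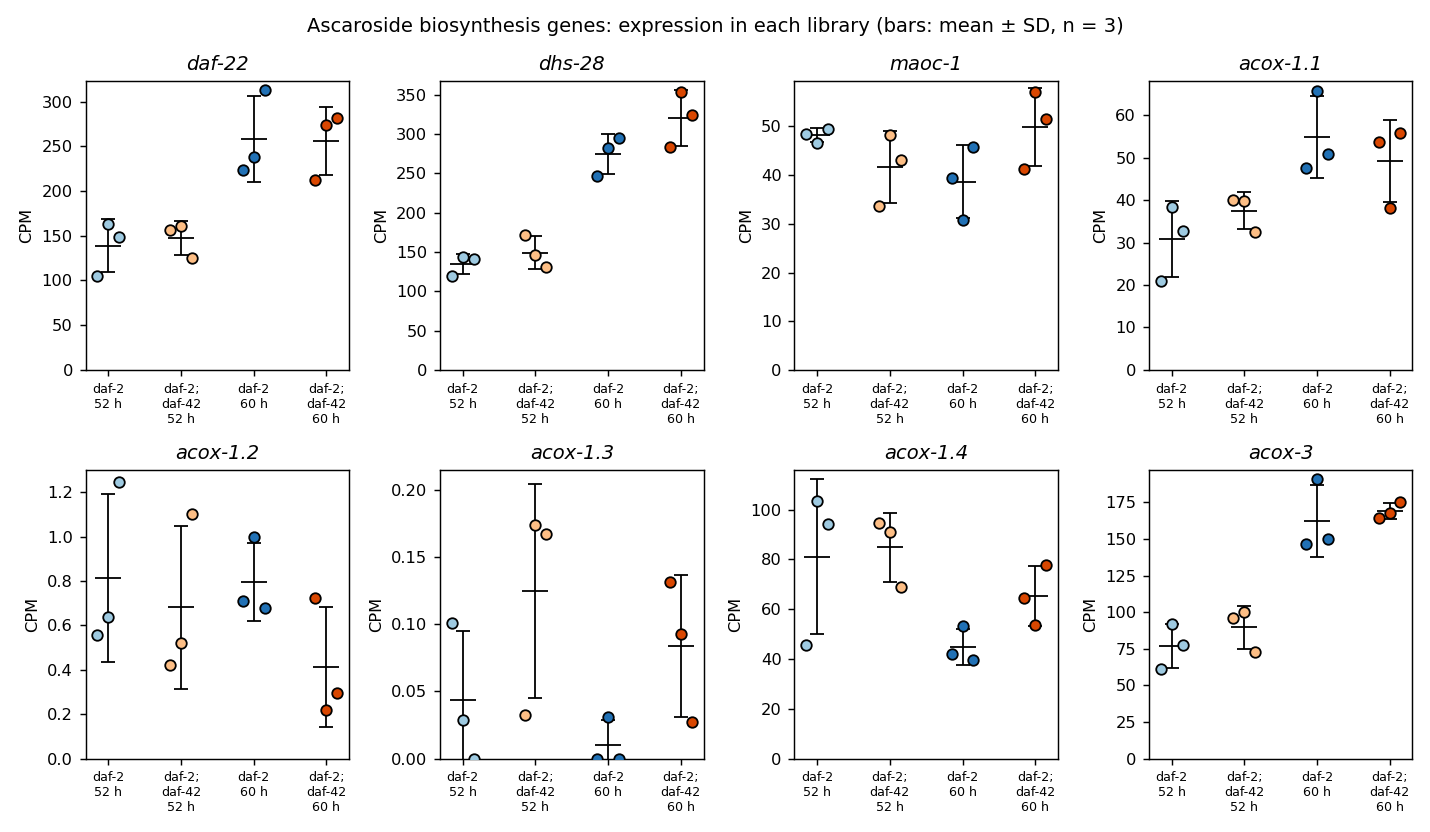
Expression of the 8 genes in each of the 12 libraries, as CPM on a linear axis that starts at 0 and differs between panels; points are libraries, and bars are the mean ± SD of 3. For dhs-28 the 52 h libraries lie between 119.6 and 171 CPM and the 60 h libraries between 247 and 353 CPM, whereas acox-1.2 stays at or below 1.25 CPM and acox-1.3 at or below 0.174 CPM.

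The comparison of 60 h with 52 h in daf-2 asks how the pathway changed between the collections. Expression of daf-22, dhs-28, acox-3 and acox-1.1 rose, by between 1.78-fold and 2.12-fold, and acox-1.4 fell. The hydratase maoc-1 and the scarce oxidase acox-1.2 did not pass the test. Thus 5 of the 7 tested genes were called by edgeR's quasi-likelihood test with Benjamini-Hochberg adjustment over all genes at 0.05, 4 higher and 1 lower, where 34.7% of all tested genes were called, 18.5% higher and 16.2% lower. The median log2 fold change of the 7 genes was 0.83, against 0.07 over all genes.

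The thiolase gene daf-22, which acts last in the cycle, measured 106, 163 and 148 CPM in the 3 libraries at 52 h and 223.5, 238 and 313 CPM at 60 h. The times did not overlap, and replicate 1 was the lowest of the 52 h libraries. The log2 fold change was 0.89 (SE 0.24, edgeR adjusted p = 0.0106), a 1.86-fold rise. With replicate 1 of the 52 h libraries left out it was 0.72 and no longer called (edgeR adjusted p = 0.0523).

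The dehydrogenase gene dhs-28 measured 119.6, 144 and 141 CPM at 52 h and 247, 282 and 295 CPM at 60 h. All 3 later libraries lay above all 3 earlier ones. The gene rose 2.04-fold, by 1.03 on the log2 scale (SE 0.20, edgeR adjusted p = 0.00155). No library left out ended this call, and the log2 fold change was then at least 0.95.

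The oxidase gene acox-3 moved with dhs-28. It measured 61.4, 91.8 and 77.3 CPM at 52 h and 147, 191 and 149.9 CPM at 60 h, again without overlap. The log2 fold change was 1.08 (SE 0.21, edgeR adjusted p = 0.00175).

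The oxidase gene acox-1.1, a central oxidase of the pathway, measured 20.96, 38.5 and 32.8 CPM at 52 h and 47.6, 65.8 and 50.9 CPM at 60 h. The times did not overlap in CPM, although they did in TPM. Its log2 fold change was 0.83 (SE 0.24, edgeR adjusted p = 0.0177). This call did not hold with replicate 1 of the 52 h libraries left out, where the log2 fold change was 0.62, or with replicate 2 of the 60 h libraries left out, where it was 0.64. With replicate 1 of the 52 h libraries left out, 3 of the 5 calls over time in daf-2 were made.

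The fall of acox-1.4 went against the rise of acox-3 and acox-1.1. This gene, the last of a row of 4 neighbouring oxidase genes, measured 45.4, 103 and 94.4 CPM at 52 h and 41.9, 53.2 and 39.8 CPM at 60 h. Replicate 1 of the 52 h libraries lay within the range of the 60 h libraries, so the times overlapped. The log2 fold change was -0.85 (SE 0.29, edgeR adjusted p = 0.0354), or 1.80-fold lower at 60 h. That call was lost without replicate 2 or 3 at 52 h (log2 fold changes of -0.64 and -0.73) and without replicate 1 or 3 at 60 h (-0.80 and -0.77), whereas without replicate 1 at 52 h the fall was larger, at -1.14. Nor did it hold with the replicate number as a block (-0.82, edgeR adjusted p = 0.0587) or with only the daf-2 libraries in the fit (-0.87, edgeR adjusted p = 0.0614).

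For maoc-1 the 52 h libraries measured 48.5, 46.6 and 49.4 CPM and the 60 h libraries 39.4, 30.7 and 45.7 CPM. The times did not overlap, as for 48.7% of all tested genes in CPM and for 5 of the 7 pathway genes. The log2 fold change of -0.32 (SE 0.20, 95% interval -0.76 to 0.12) did not pass the test (edgeR adjusted p = 0.254). The counts of acox-1.2, an oxidase linked to short-chain ascarosides, were small: 22, 22 and 46.1 estimated counts at 52 h and 23, 32 and 27 at 60 h. Its log2 fold change was -0.03 with a wide 95% interval of -1.06 to 1.00.

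**Figure D2:**
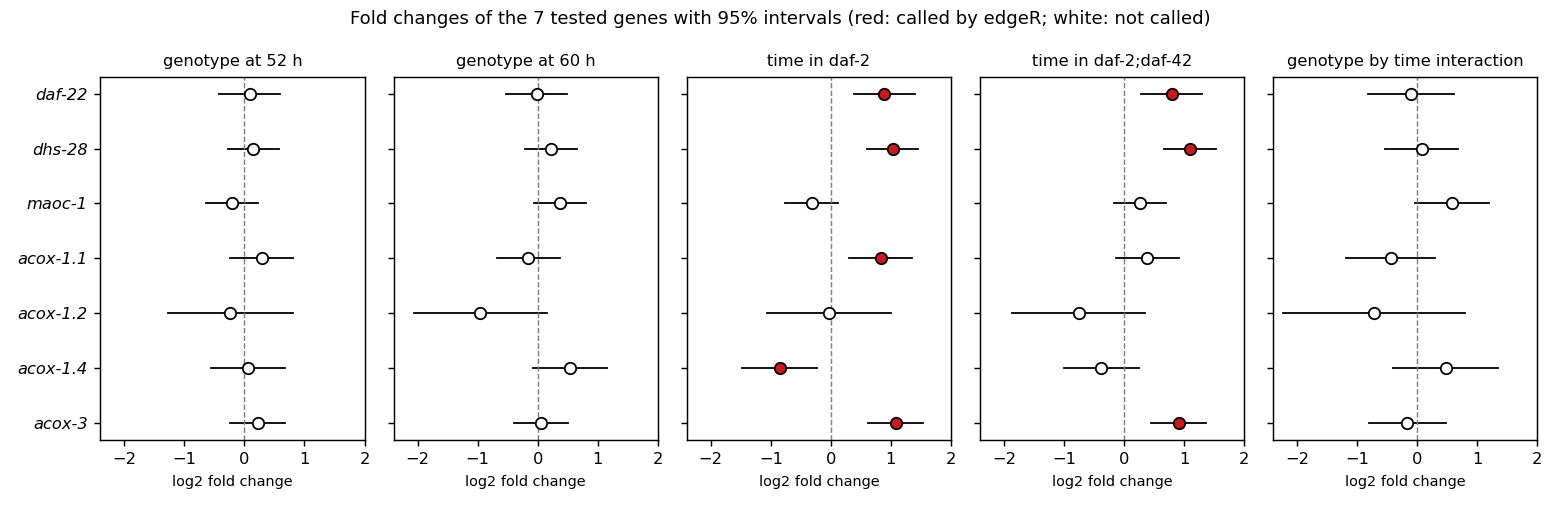
Log2 fold changes of the 7 tested genes (rows) in the 5 comparisons (panels), with 95% intervals as lines; red points were called by edgeR at an adjusted p below 0.05. The 5 calls of the time comparison in daf-2 and the 3 calls in the double mutant are red, and all points of the genotype and interaction panels are white.

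In the double mutant the same comparison over time gave 3 calls, all higher at 60 h, for dhs-28, acox-3 and daf-22. Over all genes 41% were called in this comparison, 22.4% higher and 18.6% lower. The median log2 fold change of the 7 pathway genes was 0.39, where that of all genes was near 0. Groups did not overlap in CPM for those 3 genes, and for 55.7% of all tested genes.

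Expression of dhs-28 was 171, 146 and 130.2 CPM at 52 h and 283, 353 and 325 CPM at 60 h. Every later library was above every earlier one. The log2 fold change was 1.102 (SE 0.20, edgeR adjusted p = 0.00159), a 2.15-fold rise.

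Expression of acox-3 was 96.0, 99.9 and 72.8 CPM at 52 h and 164, 168 and 175 CPM at 60 h, with the later libraries close together. Its log2 fold change was 0.91 (SE 0.21, edgeR adjusted p = 0.00646). Expression of daf-22 was 156, 161 and 126 CPM at 52 h and 212, 273 and 281 CPM at 60 h. The groups were separate, and the log2 fold change was 0.79 (SE 0.24, edgeR adjusted p = 0.0201). This call did not hold with replicate 3 of the 52 h libraries left out (0.72, edgeR adjusted p = 0.0774) or with replicate 3 of the 60 h libraries left out (0.72, edgeR adjusted p = 0.067).

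The other 4 genes did not pass. The oxidase acox-1.1 measured 40.1, 39.9 and 32.6 CPM at 52 h and 53.6, 38.2 and 55.8 CPM at 60 h, with replicate 2 at 60 h inside the earlier range, and its log2 fold change was 0.39 (edgeR adjusted p = 0.2). The oxidase acox-1.4 measured 94.7, 90.9 and 69.0 CPM at 52 h and 64.7, 53.8 and 77.8 CPM at 60 h, with overlap, and changed by -0.38 (edgeR adjusted p = 0.296). The hydratase maoc-1 measured 33.6, 48.2 and 43.02 CPM at 52 h and 41.3, 57.0 and 51.5 CPM at 60 h, and its log2 fold change was 0.26 (edgeR adjusted p = 0.3). These 3 genes had overlapping groups. The scarce acox-1.2 had between 13 and 46.03 estimated counts at 52 h and between 7 and 22 at 60 h (log2 fold change -0.76, edgeR adjusted p = 0.243). With replicate 1 of the 60 h libraries left out its fall was called, at -1.402 (edgeR adjusted p = 0.048).

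A call in one strain and not in the other does not show that the strains differ, and the difference between the changes over time was tested as an interaction. None of the 7 genes passed (unadjusted p below 0.05 for 0 of them), where 9.52% of all genes did, 5.58% upward and 3.94% downward. DESeq2 also called 0 of the 7, against 20.8% of all genes. For the 3 genes called in both strains the interaction was -0.10 for daf-22 (95% interval -0.82 to 0.62), 0.07 for dhs-28 (-0.53 to 0.68) and -0.17 for acox-3 (-0.81 to 0.48). These intervals still allow differences of more than 1.5-fold in either direction for daf-22. For acox-1.1 the interaction was -0.44 (95% interval -1.18 to 0.30) and for acox-1.4 it was 0.48 (-0.40 to 1.35). The largest estimate among the well expressed genes was that of maoc-1, at 0.58 (95% interval -0.04 to 1.1999, edgeR adjusted p = 0.17), whose fold changes over time had opposite signs in the strains.

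The comparison of the strains at 52 h asks whether expression of the pathway differed with allele ys54 of daf-42 at the earlier collection. None of the 7 genes was called by edgeR, 0 had an unadjusted p below 0.05, and DESeq2 called 0. Over all genes edgeR called 0.635% at this time, 0.44% higher and 0.195% lower, and DESeq2 called 1.64%. Groups did not overlap in CPM for 0 of the 7 genes, against 18.2% of all genes. The highest estimate was that of acox-1.1, 1.22-fold (95% interval 0.85 to 1.75), and acox-3 followed at 1.17-fold (0.85 to 1.5997). For daf-22 the estimate was 1.06-fold (0.75 to 1.51), for dhs-28 1.11-fold (0.82 to 1.49), for acox-1.4 1.05-fold (0.68 to 1.604) and for maoc-1 0.864-fold (0.64 to 1.17). The interval of acox-1.2 was wider, from 0.42-fold to 1.74-fold.

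At 60 h, too, 0 of the 7 genes were called between the strains, with an unadjusted p below 0.05 for 0 and DESeq2 calls for 0, where 34.4% of all genes were called by edgeR, 17.4% higher and 17% lower, and 41.4% by DESeq2. The median log2 difference of the 7 genes was 0.06 against -0.01 over all genes. For daf-22 the double-mutant level was 0.991-fold that of daf-2 (95% interval 0.70 to 1.41), for acox-3 1.04-fold (0.76 to 1.43), for dhs-28 1.17-fold (0.87 to 1.57) and for acox-1.1 0.898-fold (0.63 to 1.29). The gene with the most separated groups in CPM was acox-1.4, at 41.9, 53.2 and 39.8 CPM in daf-2 and 64.7, 53.8 and 77.8 CPM in the double mutant. It was the only 1 of the 7 without overlap in CPM, against 38.8% of all genes, and its log2 difference of 0.54 (SE 0.29, 95% interval -0.08 to 1.16) did not pass (edgeR adjusted p = 0.151). The log2 difference of maoc-1 was 0.37 (edgeR adjusted p = 0.163) and that of acox-1.2 -0.96 (edgeR adjusted p = 0.157). With replicate 1 of the later double-mutant libraries left out, acox-1.2 was called lower, at -1.598 (edgeR adjusted p = 0.0312).

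Values at 60 h in the double mutant depended on the scale. Fold changes correlated with transcript length across genes in the comparisons that involve this group, with a Spearman rho of -0.46 between the strains at 60 h and -0.54 over time in the double mutant, against -0.05 over time in daf-2 and 0.26 between the strains at 52 h. These coefficients are across genes of the same libraries and describe them only. On log2(TPM + 0.5) the median of all genes moved to -0.32 between the strains at 60 h and to -0.40 over time in the double mutant. On that scale limma called 9.64% of all genes higher and 27.6% lower between the strains at 60 h, where edgeR on counts called 17.4% and 17%, and 11.7% higher and 38.4% lower over time in the double mutant.

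Between the strains at 60 h the tested pathway genes other than acox-1.2 had lower log2 differences on this scale than on counts. That of acox-1.4 was 0.14 in place of 0.54 and that of maoc-1 -0.024 in place of 0.37. For acox-1.2 it was -0.42 in place of -0.96. The thiolase daf-22 measured 168, 208 and 189.8 TPM in daf-2 and 141, 130.4 and 155 TPM in the double mutant at 60 h, and so did not overlap in TPM, as for 39.4% of all genes, although it overlapped in CPM. Its log2(TPM + 0.5) difference of -0.41 did not pass (limma adjusted p = 0.118), and relative to the median of all genes it was -0.09. Over time in the double mutant the rise of daf-22 was 0.28 in TPM (limma adjusted p = 0.248) and 0.68 relative to the median, and that of acox-3 was 0.42 (limma adjusted p = 0.171) and 0.82. The rise of dhs-28 was called on this scale too, at 0.60 (limma adjusted p = 0.0145), or 0.99 relative to the median. In TPM acox-1.4 fell outside its earlier range in the double mutant, from 39.99, 43.7 and 34.3 TPM to 25.3, 15.1 and 25.1 TPM, as 60.3% of all genes lay outside theirs, and its log2 difference of -0.86 missed the threshold (limma adjusted p = 0.0554).

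A fit was also made that removes the trend with transcript length from each library. With this offset acox-1.4 was called higher in the double mutant at 60 h, at 0.94 (edgeR adjusted p = 0.01, with 18.9% of all genes called higher), and acox-1.1 was called higher over time in the double mutant, at 0.85 (edgeR adjusted p = 0.00381). The change of acox-1.4 over time in the double mutant turned from -0.38 to 0.10 and was called in neither fit. All 5 calls over time in daf-2 and all 3 calls over time in the double mutant were also made with the offset, in the same direction, where it called 45.4% and 37.8% of all genes. Whether length-dependent loss of RNA plays a part in the differences between the scales was not tested.

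**Figure D3:**
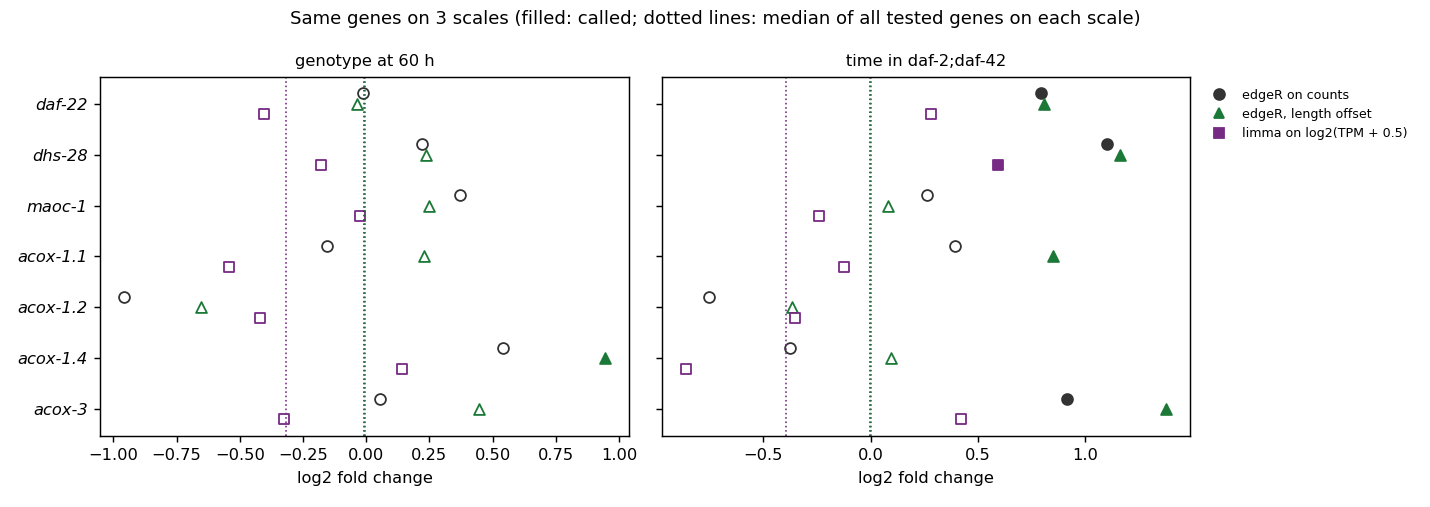
Log2 fold changes of the 7 tested genes (rows) between the strains at 60 h (left) and over time in the double mutant (right), from edgeR on counts, edgeR with a length offset and limma on log2(TPM + 0.5); filled symbols were called, and dotted lines mark the median of all tested genes on each scale. The TPM medians lie at -0.32 and -0.40, the others near 0, and dhs-28 is filled on all 3 scales over time.

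Shares within a library need no scaling between libraries, and they show how the transcripts of the 5 listed oxidase genes were divided. Of the summed TPM of the 5 oxidase genes, acox-1.4 held 34.9% to 45.4% in daf-2 at 52 h (mean 41.3% ± 5.56) and 16.1% to 17.3% at 60 h (16.7% ± 0.58). In the double mutant its share was 38.7% to 40.3% at 52 h (39.2% ± 0.93) and 20.3% to 24.7% at 60 h (22.5% ± 2.18). The earlier and later libraries did not overlap in either strain.

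The share of acox-3 moved the other way, from 42.3% ± 5.55 to 62.5% ± 0.40 in daf-2 and from 42.8% ± 0.95 to 60.4% ± 4.14 in the double mutant. The share of acox-1.1 was 16.0% ± 0.29 at 52 h and 20.4% ± 0.57 at 60 h in daf-2, and 17.5% ± 0.66 and 16.9% ± 2.21 in the double mutant. At 60 h the strains did not overlap in the shares of acox-1.4 and acox-1.1, with acox-1.4 5.75 percentage points higher and acox-1.1 3.52 percentage points lower in the double mutant. The small share of acox-1.2 was separated too, at 0.307% ± 0.02 in daf-2 and 0.148% ± 0.097 in the double mutant. At 52 h the share of acox-1.1 was separated in the other direction, 1.56 percentage points higher in the double mutant. Each of these separated comparisons had an exact two-sided permutation p of 0.1, the smallest that 3 libraries against 3 can give, and 0.222 after adjustment over the 20 comparisons of shares, so none passed. The oxidases acox-1.2 and acox-1.3 together never reached 1% of the summed TPM of these 5 genes.

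**Figure D4:**
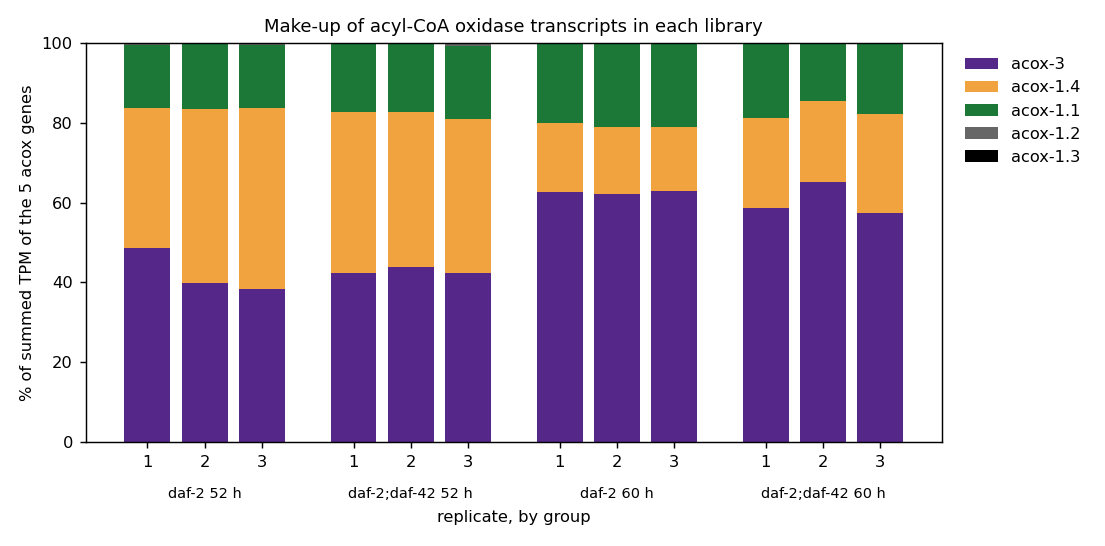
Share of each oxidase gene in the summed TPM of the 5 acox genes (vertical axis, %), with 1 bar for each of the 12 libraries, ordered by group. The acox-1.4 segment is 34.9% to 45.4% of the bar in the 6 libraries at 52 h and 16.1% to 24.7% in the 6 at 60 h, while the acox-3 segment is 38.3% to 48.6% and 57.5% to 65.1%.

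The same division was computed for the 3 enzymes that follow the oxidases, after their levels had been seen. Of the summed TPM of daf-22, dhs-28 and maoc-1, the share of maoc-1 went from 19.7% ± 2.91 to 9.06% ± 1.41 in daf-2 and from 16.3% ± 3.43 to 10.6% ± 0.43 in the double mutant. The share of dhs-28 went from 38.5% ± 1.14 to 45.7% ± 3.10 in daf-2 and from 40.8% ± 3.31 to 48.4% ± 1.69 in the double mutant. In these 4 comparisons the times did not overlap (exact two-sided permutation p = 0.1, the smallest possible, and 0.24 after adjustment over 12 comparisons). The share of daf-22 overlapped between the times in both strains, but at 60 h it was 45.3% ± 2.44 in daf-2 and 41.0% ± 1.74 in the double mutant, without overlap and with the same exact p of 0.1.

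The 8 genes are spread over 4 chromosomes (WBcel235). The thiolase daf-22 (WBGene00013284) lies on chromosome II from 12423518 to 12425694 on the minus strand, and maoc-1 (WBGene00017123) on the same chromosome from 7196276 to 7197495 on the plus strand. The gene dhs-28 (WBGene00000991) lies on X from 6818438 to 6820080 on the plus strand, and acox-3 (WBGene00019060) on IV from 6245358 to 6248492 on the minus strand. The other oxidases form a row on the plus strand of chromosome I, acox-1.1 (WBGene00008564) from 12938555 to 12942227, acox-1.2 (WBGene00008565) from 12942280 to 12946588, acox-1.3 (WBGene00008566) from 12946932 to 12951099 and acox-1.4 (WBGene00008567) from 12951134 to 12954003. The gaps between them are 52, 343 and 34 bases, with no annotated gene inside. Neighbours in this row differed widely in level, since acox-1.1 and acox-1.4 at its ends were well expressed while acox-1.2 and acox-1.3 between them were close to undetected in all 4 groups.

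The estimated count of acox-1.4 was not whole in 10 of the 12 libraries and that of acox-1.3 in 9, with a tolerance of 0.01 counts. That of acox-1.2 was not whole in 2 libraries and that of dhs-28 in 1. These counts are sums over the transcripts of a gene, so part of the reads was shared with transcripts outside the gene. Which transcripts shared them was not tested. For daf-22, maoc-1, acox-1.1 and acox-3 the counts were whole in all 12 libraries. The ends of dhs-28, maoc-1 and acox-1.4 overlap the genes gei-15, E04F6.6 and F08A8.8 on the opposite strand. The library kit keeps the strand, but whether the counting used it is not given in the sources used here.

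Single transcripts were also tested over time in daf-2. Transcript F08A8.4.1 of acox-1.4, which held 65.7% of the gene's TPM at 52 h and 63.3% at 60 h, fell by 0.90 on the log2 scale (edgeR adjusted p = 0.0302). The other transcript, F08A8.4.2, had a fold change of -0.85 that did not pass (edgeR adjusted p = 0.142). For acox-3 the main transcript F58F9.7.1 rose by 0.92 (edgeR adjusted p = 0.0251). The mean share of F58F9.7.3 in daf-2 was 12.7% of the gene's TPM at 52 h (3.39% to 30.2%) and 20.1% at 60 h (12.3% to 34.5%). In the double mutant it was 15.4% (7.28% to 21.4%) and 26.3% (19.5% to 35.2%). The times overlapped in both strains. The fold change of F58F9.7.3 itself was 1.70 in daf-2 and did not pass (edgeR adjusted p = 0.172). For acox-1.1, transcripts F08A8.1a.1 and F08A8.1c.1 had the same estimates in every library, 45.8% to 47.9% of the gene each as group means, and cannot be told apart by these counts.

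Genes whose pattern was most like each pathway gene were ranked by the root mean square (RMS) difference of mean-centred log2 CPM over the 12 libraries, among 9007 other genes whose mean log2 CPM was 3 or more. The 5 nearest to daf-22 were thoc-7 (RMS difference 0.118), C24A3.4 (0.129), ugt-52 (0.139), mafr-1 (0.141) and moc-5 (0.154), beside a spread of daf-22 itself of 0.473. The nearest to dhs-28 was C49A9.2 (0.106), to maoc-1 the short-chain dehydrogenase gene dhs-1 (0.0819), to acox-1.1 the peroxisomal catalase gene ctl-2 (0.152), to acox-3 the peroxisomal protease gene lonp-2 (0.125) and to acox-1.4 F53C3.6 (0.185). For the scarce acox-1.2 the nearest, WBGene00017849, lay at 0.317.

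Among the pathway genes themselves, dhs-28 and acox-3 were closest, with an RMS difference of 0.155 and 7 genes nearer to dhs-28 than acox-3 was. The pair daf-22 and dhs-28 differed by 0.186 and the pair daf-22 and acox-3 by 0.201. The gene acox-1.1 lay at 0.257 from acox-3. In contrast, acox-1.4 was 0.779 from daf-22, 0.874 from dhs-28 and 0.831 from acox-3, and maoc-1 was 0.525, 0.613 and 0.631 from the same 3 genes.

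Genes of ascaroside assembly were examined as a companion list of 9 genes, all tested. They are those of enzymes that attach or exchange groups on the sugar or side chain, or are related to such enzymes, and the Rab gene glo-1. Over time in daf-2 edgeR called 2 of them higher and 3 lower, where 18.5% and 16.2% of all genes were called, with a median log2 fold change of -0.32 against 0.07 over all genes. The acyl-CoA synthetase gene acs-7, needed for indole ascarosides, measured 20.3, 27.9 and 22.6 CPM at 52 h and 59.5, 67.4 and 67.4 CPM at 60 h in daf-2, without overlap. In the double mutant it measured 29.4, 31.8 and 20.6 CPM and then 69.1, 69.8 and 69.2 CPM. Its log2 rise was 1.46 in daf-2 (edgeR adjusted p = 0.000121) and 1.35 in the double mutant (edgeR adjusted p = 0.000351), larger estimates than those of the 7 tested pathway genes.

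The carboxylesterase genes of the list, related to enzymes that join building blocks to ascarosides, fell over time or were not called, apart from cest-8, which rose by 0.47 in daf-2 (edgeR adjusted p = 0.0345) and is named here after its value was seen. Expression of cest-2.2 was 24.0, 23.9 and 24.9 CPM at 52 h and 7.28, 3.72 and 4.13 CPM at 60 h in daf-2, all later libraries below all earlier ones. In the double mutant it was 18.4, 28.03 and 26.1 CPM and then 12.99, 8.99 and 12.2 CPM. The log2 fold changes were -2.27 in daf-2 (edgeR adjusted p = 4.52e-05) and -1.09 in the double mutant (edgeR adjusted p = 0.00677). Between the strains at 60 h, cest-2.2 was higher in the double mutant by 1.18 and cest-4 by 0.90 (edgeR adjusted p = 0.00572 and 0.00429), and glo-1, a Rab gene of lysosome-related organelles, by 0.69 (edgeR adjusted p = 0.0452). The call of glo-1 at 60 h did not hold with any single library left out, other than replicate 3 of daf-2 and replicate 1 of the double mutant at that time. Nor did this call hold with the length offset or with only the 2 groups compared. Over time in daf-2 cest-3 fell by 1.79 (edgeR adjusted p = 0.00052), and over time in the double mutant glo-1 rose by 1.02 (edgeR adjusted p = 0.00798).

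The peroxisome itself was followed through 16 genes, the peroxins, which import proteins and build the organelle, and the pmp transporters of its membrane. Over time 4 rose and 3 fell in daf-2, and 7 rose and 2 fell in the double mutant, where edgeR called 34.7% and 41% of all genes. The median log2 fold changes of the list were 0.20 and 0.23, against 0.07 and near 0 over all genes. The transporter gene pmp-2 measured 40.7, 40.5 and 41.1 CPM at 52 h and 129.7, 133 and 119.6 CPM at 60 h in daf-2, and 42.6, 45.2 and 37.4 CPM and then 76.6, 73.7 and 71.7 CPM in the double mutant. Its log2 rise was 1.64 in daf-2 (edgeR adjusted p = 9.29e-06) and 0.83 in the double mutant (edgeR adjusted p = 0.00193). In daf-2 pmp-5 fell by 1.49 (edgeR adjusted p = 0.000276) and prx-3 fell by 0.93 (edgeR adjusted p = 0.000514), whereas in the double mutant prx-12 rose by 1.49 (edgeR adjusted p = 0.000569) and prx-11 rose by 1.013 (edgeR adjusted p = 0.00286).

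At 60 h 3 of these 16 genes were called higher and 2 lower in the double mutant, where 17.4% and 17% of all genes were. The peroxin gene prx-11 differed by 1.13 (edgeR adjusted p = 0.00172), prx-3 by 0.59 (edgeR adjusted p = 0.0131) and pmp-2 by -0.78 (edgeR adjusted p = 0.00302). With the length offset 3 of these 5 calls were also made in the same direction, and that of pmp-2 was not. Without any single 52 h library of daf-2, the list's calls over time in daf-2 dropped from 7 to 4, and its 9 calls in the double mutant became 5 with replicate 3 of the 52 h libraries left out.

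Of 10 listed receptor genes linked to the sensing of ascarosides, 6 passed the filter on low counts and were tested. At 60 h 4 of the 6 were called lower in the double mutant, where 17% of all genes were, with a median log2 difference of -0.78 against -0.01 over all genes. The receptor gene daf-37, known for sensing an ascaroside of the dauer pheromone, measured 15.7, 18.3 and 16.3 CPM in daf-2 and 8.86, 9.43 and 9.18 CPM in the double mutant at 60 h, without overlap (log2 difference -0.87, edgeR adjusted p = 0.000975). The receptors octr-1 and tyra-2 differed by -0.78 and -0.66 (edgeR adjusted p = 0.00657 and 0.0278). Over time in daf-2 edgeR called 3 of the 6 higher and 1 lower, where 34.7% of all genes were called. Of these octr-1 rose by 1.06, daf-37 rose by 0.71 and srbc-64 fell by 1.71 (edgeR adjusted p = 0.000566, 0.00197 and 0.00613). Over time in the double mutant only srbc-64 of the 6 was called, at -1.87 (edgeR adjusted p = 0.0106). In that comparison 41% of all genes were called. The gene srbc-64 was scarce, with at most 0.71 CPM at 52 h and at most 0.25 CPM at 60 h in any library. The 4 calls between the strains at 60 h became 2 without replicate 1 or 2 of daf-2 or without replicate 2 of the double mutant.

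Of the oxidase genes outside the 8, acox-1.6 was called in none of the 5 comparisons. Its mean level at 52 h and 60 h was 27.6 and 28.4 TPM in daf-2 and 27.7 and 22.4 TPM in the double mutant. Neither acox-1.6 nor acox-1.5 is part of the oxidase shares given above. The gene acox-1.5 fell over time in the double mutant, from 8.75, 10.6 and 12.5 CPM to 6.79, 2.48 and 4.30 CPM, by -1.23 on the log2 scale (edgeR adjusted p = 0.0102), and in daf-2 its change was -0.05.

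**Figure D5:**
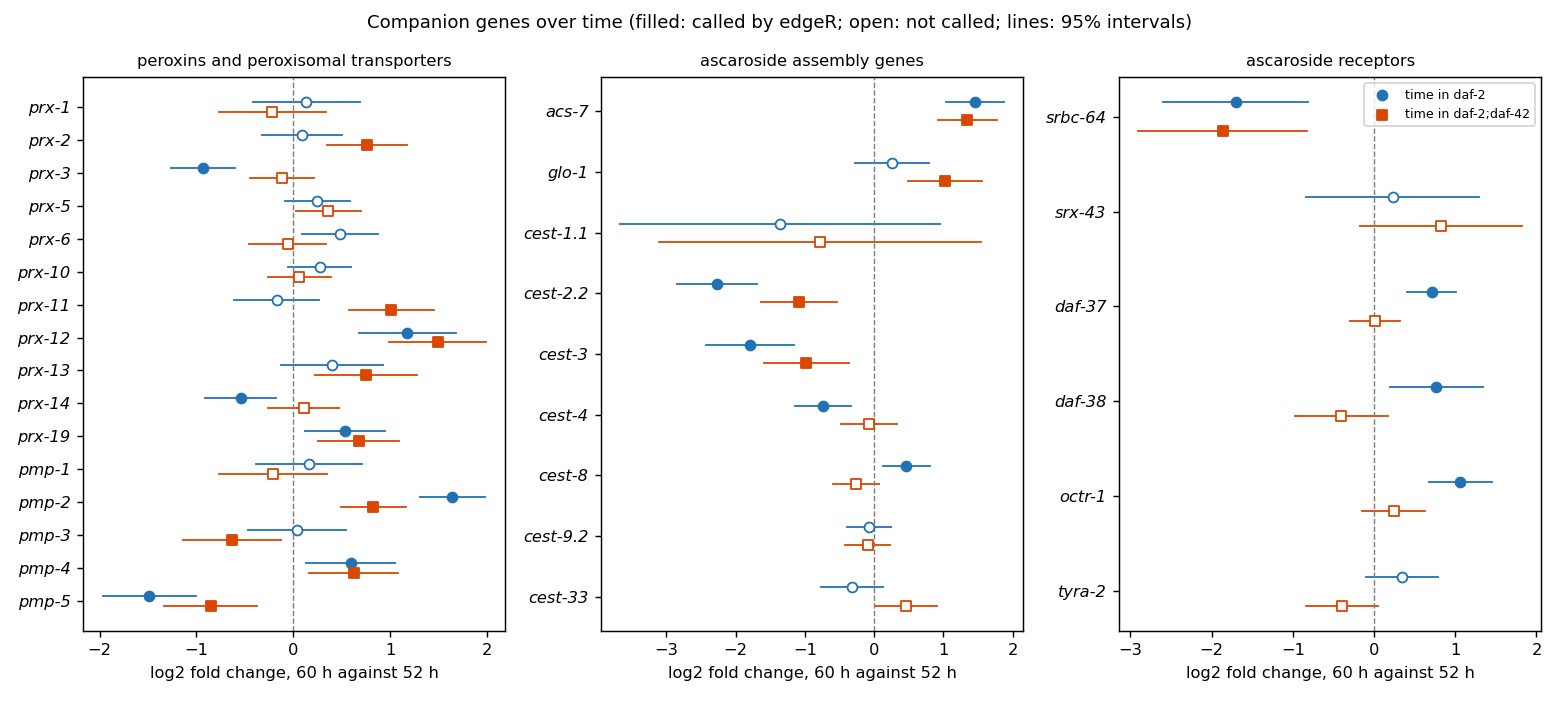
Log2 fold changes from 52 h to 60 h, with 95% intervals, of 16 peroxins and peroxisomal transporters, 9 ascaroside assembly genes and 6 tested ascaroside receptors, in daf-2 (circles) and the double mutant (squares); filled symbols were called by edgeR. The acs-7 symbols lie at 1.46 and 1.35, those of cest-2.2 at -2.27 and -1.09 and those of pmp-2 at 1.64 and 0.83.

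Ascaroside synthesis is placed in the intestine and epidermis by earlier work, and markers of these tissues moved between the same groups. The summed level of the 6 intestine markers was 352 to 382 TPM in daf-2 and 427 to 622 TPM in the double mutant at 52 h, and 440 to 1011 TPM and 178 to 514 TPM at 60 h. For the 6 epidermis markers it was 168 to 248 TPM and 223 to 345 TPM at 52 h, and 137 to 662 TPM and 49.4 to 125 TPM at 60 h. Body wall muscle markers summed to 2971 to 8578 TPM in daf-2 and 1111 to 2228 TPM in the double mutant at 60 h, and germline markers to 80.9 to 206 TPM and 28.8 to 57.4 TPM. Such sums weigh the genes with the highest TPM most, and TPM at 60 h depended on transcript length. Between the strains at 60 h edgeR called 3 muscle markers, of which 1 was also called with the length offset. For intestine, epidermis and germline 3 of 3, 3 of 3 and 3 of 4 calls were also made with it. The muscle, epidermis and germline calls were all lower in the double mutant. Of the intestine calls 2 were higher and 1 was lower there, so the lower range of the intestine sum does not describe each of its markers. Over all genes edgeR called 34.4%, 17.4% higher and 17% lower. Over time in daf-2 2 of the 6 intestine markers were called higher and 2 lower, and in the double mutant 1 was called higher and 2 lower, where 34.7% and 41% of all genes were called in either direction. The part of these tissue differences in the values of the pathway genes was not tested.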

How the data were processed

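RNA-seq libraries of polyadenylated RNA from whole animals, made with a TruSeq Stranded mRNA kit per the labels' protocols, were quantified by the authors. Per the submitters' processing notes kallisto 0.46.1 and WBcel235 were used, and the deposited files hold estimated counts per transcript. TPM (transcripts-per-million) stand beside them as deposited by the authors, scaled within each library for transcript length and depth. Whether counting used the strand is not given in the sources used here.

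Of 36172 transcripts, 31502 matched the Ensembl annotation by identifier and 4581 by sequence name, and 89 were not matched, which left 22113 genes. Estimated counts were summed per gene and rounded to whole numbers, and TPM were summed. Counts were tested in edgeR 4.0.16 (R 4.3.3) with TMM scaling, filterByExpr (16371 genes kept) and quasi-likelihood fits of all 12 libraries. There were 5 contrasts, with Benjamini-Hochberg adjustment over all genes and a threshold of 0.05. CPM use the TMM library sizes. Alternatives used DESeq2 1.42.0, limma 3.58.1 on log2(TPM + 0.5), other scalings and filters, a length offset (lowess span 0.3), a replicate block, single transcripts, a minimum fold change of 1.5 and the omission of each library. The limma fits were added after the levels had been seen. Replicate numbers, which the labels do not tie to a shared culture or day, were checked by correlating the deviations of same-numbered libraries from their group means. All 3 correlations exceeded 0.1 between the strains at 52 h (0.249, 0.136 and 0.198) and over time in daf-2;daf-42 (0.109, 0.408 and 0.136). Between daf-2 at 52 h and daf-2;daf-42 at 60 h they were -0.078, -0.099 and 0.213. These values do not settle whether the numbers mark pairs. The main fit did not use the numbers, and the replicate block was an alternative. The edgeR and limma steps were tested on simulated data. Shares were compared by exact two-sided permutation tests (scipy 1.17.1). Intervals are 95% intervals from the edgeR fit. Total estimated counts were 30011670 to 43519394 per library, and genes with under about 50 counts, such as acox-1.2, had wide intervals.

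The 8 genes and the companion and marker lists were chosen with earlier results of these data known. All 8 genes were named. From each companion list up to 3 called genes with the smallest adjusted p per comparison were named, and acox-1.6 and cest-8 besides. The genes most like each pathway gene were those with the smallest RMS difference, 5 for daf-22 and 1 for each other gene. Sequences and promoter motifs were not analysed here.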

Additional observations from a re-analysis of the deposited data

Results flagged for a closer look

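The difference between the strains changed from 52 h to 60 h for 4 companion genes, by the interaction test of edgeR, and for none of the 7 tested pathway genes. These were 3 of the 16 peroxins and transporters and 1 of the 6 tested receptors. Of the 9 assembly genes and the 2 other oxidases, 0 were called. Over all genes 9.52% were called in this test. For the peroxin gene prx-11 the log2 difference at 60 h minus that at 52 h was 1.18 (SE 0.29, edgeR adjusted p = 0.0263). Its CPM were 7.41, 6.04 and 6.58 in daf-2 and 6.41, 6.67 and 6.29 in daf-2;daf-42 at the earlier time, and 5.64, 4.62 and 7.52 and then 11.4, 16.0 and 11.7 at the later time. For prx-3, which is needed for peroxisome membrane formation, it was 0.81 (SE 0.22, edgeR adjusted p = 0.0368). For the transporter gene pmp-2 it was -0.82 (SE 0.22, edgeR adjusted p = 0.0371), and for the receptor gene daf-37 it was -0.69 (SE 0.20, edgeR adjusted p = 0.0494). These calls did not hold in 9, 11, 14 and 16 of the alternatives run for prx-11, prx-3, pmp-2 and daf-37. They held in 11, 9, 6 and 4 alternatives. Each was lost with a minimum fold change of 1.5, with the replicate number as a block and with at least 1 single library left out. The cause was not tested.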

How the results depend on the processing

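Of 848 single-gene values recomputed under the alternatives for the pathway genes, 775 kept their direction and side of the threshold, 28 lost a call, 4 gained one and 41 changed sign, and 0 of the values that changed sign were called. Over time in daf-2 the 5 calls became 2 with a minimum fold change of 1.5 (19.1% of all genes called) and 3 by limma with either TPM pseudocount (0.5 or 0.1, 33.3% and 32.7%), and ranged from 3 to 5 over the fits that left out a library. Over time in the double mutant the 3 calls became 1 with the minimum fold change (16.1%) and 1 by limma with either pseudocount (50.1% and 50.5%), and ranged from 2 to 4. Between the strains at 60 h the count was 1 with the length offset and 0 to 1 with a library left out. The mean share of acox-3 in daf-2 at 60 h was 61.8% from estimated counts in place of 62.5%.

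The log2 difference of daf-22 between the strains at 60 h turned to 0.014 with upper-quartile scaling, 0.041 with no filter, 0.013 with the filter at 1 CPM in 6 libraries and 0.10 for transcript Y57A10C.6.1, whose interaction was 0.035. By limma on TPM + 0.5 and TPM + 0.1 the strains at 60 h differed by -0.18 and -0.18 for dhs-28, -0.024 and -0.024 for maoc-1 and -0.33 and -0.33 for acox-3. On the same scales the interaction of dhs-28 was -0.32 and -0.32, and the change over time in the double mutant was -0.24 and -0.25 for maoc-1 and -0.13 and -0.13 for acox-1.1. With the length offset acox-1.1 differed by 0.23 between the strains at 60 h, acox-1.4 by 0.10 over time in the double mutant and acox-3 by 0.28 in the interaction. Transcript F08A8.1b.2 of acox-1.1 changed by -0.18 over time in the double mutant, and F58F9.7.3 of acox-3 had an interaction of 0.096. With a library left out, the strains at 52 h differed by -0.077 to 0.22 for daf-22, -0.22 to 0.28 for acox-1.4 and -0.78 to 0.21 for acox-1.2, and at 60 h by -0.11 to 0.15 for daf-22, -0.25 to 0.049 for acox-1.1 and -0.014 to 0.24 for acox-3. The interaction ranged from -0.23 to 0.066 for daf-22 and from -0.31 to 0.024 for acox-3, and the change of acox-1.2 over time in daf-2 from -0.27 to 0.41. Apart from the omitted libraries, the cause of these shifts was not tested.

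Same-numbered libraries of different groups correlated at -0.63 to 0.41 over 18 pairs, 11 of them above 0.1, and 6 of 12 libraries correlated best with their own number. Whether the numbers mark pairs is not settled by these correlations. Every pair exceeded 0.1 between the strains at 52 h and over time in the double mutant. In these comparisons the replicate block changed no call of a pathway gene or named companion. Not every pair exceeded 0.1 over time in daf-2 or between the strains at 60 h. With the replicate number as a block the calls over time in daf-2 were 4, since acox-1.4 missed the threshold at -0.82 (edgeR adjusted p = 0.0587), and acox-1.2 changed by 0.035. A fit of only the groups compared also gave 4. Depth limits acox-1.2 and acox-1.3, and 3 libraries a group limit the rest.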
